A study of Rattus norvegicus with 36 samples.

Results

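The comparison of proximal colon between recently diabetic (D1M) and prediabetic (ND) rats rested on 12 RNA-seq libraries, 6 for each group, of the 36 libraries of the series. They were chosen by the tissue and group given for each library, and all transcripts with enough reads were described. All rats were males of the UCD-T2DM line from UC Davis, a polygenic model in which obese rats on chow become diabetic without any induction. ND rats were 70 days old and had no diabetes. D1M rats were 168 to 172 days old and had been diabetic, untreated, for 22 to 23 days. No lean or healthy rats of this line were among the samples, so ND rats stand for the stage before diabetes and not for health. ND rats were also younger, so age and diabetes cannot be told apart in this comparison. Litters were nested in groups as well: ND rats came from 2 birth dates, and 5 of 6 D1M rats shared 1 birth date. Rats diabetic for 3 months (D3M, 6 colon libraries, age 172 to 173 days, 88 to 116 days of diabetes) entered the model for its estimate of spread, and their values are set beside the D1M values. The comparisons of D1M and D3M rats with ND rats share the ND libraries.

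The wall of the proximal colon holds an epithelium that absorbs water, salt and bacterial short-chain fatty acids, a connective tissue layer whose fibroblasts secrete collagens, and smooth muscle with its nerves. Fibrillar collagens are built in the endoplasmic reticulum with the help of chaperones and prolyl isomerases, secreted, trimmed and crosslinked. L cells of the epithelium make proglucagon, the precursor of glucagon-like peptide-1. RNA was taken from whole tissue, in which fewer cells of a type and less RNA per cell cannot be told apart.

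D1M rats were heavier than ND rats, at 634.2 g ± 25.9 (SD) against 414.3 g ± 16.3, and had longer colons, at 26.3 cm ± 1.27 against 23.0 cm ± 1.15 (exact permutation test, two-sided, p = 0.00216 for each, the smallest that 6 rats against 6 allow). The groups did not overlap in either trait. Fasting glucose was 123.3 mg/dl ± 34.2 in D1M and 94.7 mg/dl ± 5.87 in ND rats (exact permutation test, n = 6 a group, p = 0.0303, and 0.0303 after adjustment over 4 traits), and the groups overlapped, with D1M rats from 93.6 to 178.6 mg/dl. Leaving out any 1 of the ND rats ended this call (exact permutation p from 0.0584 to 0.117).

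Depth was 11406785 to 17823542 counts in ND and 10024041 to 18299050 counts in D1M libraries. Each flow cell held 2 ND and 2 D1M colon libraries. The D3M colon libraries were uneven, with 0, 4 and 2 on flow cells 1, 2 and 3, and so were the ileum libraries. The ND library of rat K4028 carried ileal RNA: Fabp6, which carries bile acids inside ileal enterocytes, had 8706 CPM (counts scaled to a common library size), against 3.86 to 21.3 CPM in the other 5 ND and 3.64 to 12.6 CPM in the D1M libraries. Car1, a carbonic anhydrase of colonic epithelium, was at 15000 CPM in K4028, the lowest value, and at 19620 to 33380 CPM in the other 11 libraries. The other colonic markers Car4, Slc26a3, Hoxd10 and Aqp8 were not lowest in K4028. At 851.5, 955.8, 9.08 and 0.20 CPM, they lay within the range of the other 11 libraries. Rats K4047 and K4048 (ND) and K3989 (D1M) carried B cell transcripts, with a B cell score (mean log2 CPM of B cell transcripts, centred on the mean of the 18 colon libraries) of 5.60 to 6.24 against -2.98 to -0.48 in the other 9. The neuronal marker Nos1 was at 0 to 0.0758 CPM, and the adipocyte marker Adipoq ranged from 1.56 to 87.9 CPM across both groups.

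No transcript passed FDR < 0.05. Of 12906 transcripts tested, 0 (0%) passed at FDR < 0.05 and 0 at FDR < 0.2 with edgeR's quasi-likelihood test, and the smallest Benjamini-Hochberg FDR was 0.819. At an unadjusted p below 0.05 stood 602 transcripts (4.66%), 307 higher (2.38%) and 295 lower (2.29%) in D1M, where an even spread of p values gives 645.3. Without K4028 the test again called 0 of 13005, and 539 transcripts (4.14%) were below an unadjusted p of 0.05, 2.08% higher and 2.07% lower. DESeq2 called 11 of 9399 with K4028 (0.117%) and 0 of 12904 without it, where its smallest FDR was 0.0533. With voom 0 were called and 1468 transcripts (11.4%) were below an unadjusted p of 0.05. Without flow cell 1, which held the B cell-rich D1M rat K3989, 1682 transcripts were below an unadjusted p of 0.05, and without K3989 alone 1320 were, while edgeR's test still called 0 at FDR < 0.05. Without flow cell 1 it gave 464 at FDR < 0.2, with a smallest FDR of 0.0509. The 95% interval of the change lay within 2-fold in either direction for 84% of transcripts and within 1.5-fold for 63.3%. The median standard error was 0.151 on the log2 scale.

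**Figure D1:**
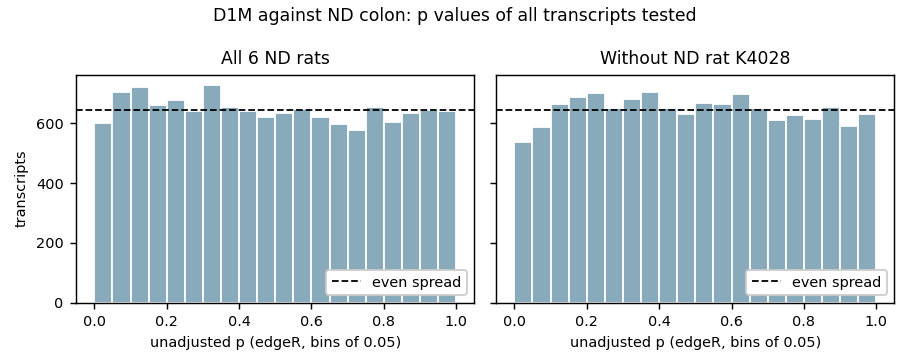
Number of transcripts (vertical axis) in each bin of unadjusted edgeR p values (horizontal axis) for D1M against ND colon, with all 6 ND rats (left) and without ND rat K4028 (right). The dashed line is an even spread. The lowest bin holds 602 transcripts on the left and lies under the line in both panels.

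The transcripts named below were those with the smallest p in each direction, 12 higher and 12 lower in D1M rats, together with members of gene lists. Since the 24 leading transcripts were chosen by p in this comparison, their fold changes, their signs within flow cells and their p values are a description. They differed in the same direction in each of the 3 flow cells and without K4028. Fold changes spanned 1.16 to 2.13 for the higher and 1.19 to 7 for the lower transcripts.

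For 13 of the 24, RefSeq gave the sequence before the gene start in build GRCr8. RefSeq gave no such sequence for Slc30a10, Col1a1, Col3a1 and Fkbp10. The 120 bases before the start are shown for 5 of the 13. These were Sparc and Tcf21 from the connective tissue group, Efna4 from the lower transcripts that DESeq2 called, and Gcg and Dbt from the higher transcripts. Capitals mark TATAAA or CCAAT on either strand (TTTATA and ATTGG are the same motifs read from the other strand). Of 33469 promoters of this length, 6.66% hold TATAAA and 19.9% hold CCAAT.
Sparc (chr10:40038817-40038936, minus strand): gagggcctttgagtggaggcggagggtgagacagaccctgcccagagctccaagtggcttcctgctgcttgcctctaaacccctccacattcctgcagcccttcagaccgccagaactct
Tcf21 (chr1:24520379-24520498, plus strand): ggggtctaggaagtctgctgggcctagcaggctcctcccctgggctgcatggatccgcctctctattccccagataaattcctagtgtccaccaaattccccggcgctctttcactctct
Efna4 (chr2:177050714-177050833, minus strand): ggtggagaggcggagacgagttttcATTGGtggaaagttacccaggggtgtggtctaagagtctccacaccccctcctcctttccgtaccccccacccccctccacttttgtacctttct
Gcg (chr3:67531534-67531653, minus strand): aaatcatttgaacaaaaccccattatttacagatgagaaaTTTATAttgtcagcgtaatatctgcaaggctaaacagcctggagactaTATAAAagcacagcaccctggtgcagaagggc
Dbt (chr2:207166540-207166659, plus strand): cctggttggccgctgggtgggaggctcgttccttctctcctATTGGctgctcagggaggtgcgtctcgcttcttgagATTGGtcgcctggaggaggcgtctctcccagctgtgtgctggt
Gcg held TATAAA 32 bases before its start, Dbt held CCAAT on the other strand at 2 places and Efna4 at 1. Neither motif was found in the windows of Sparc and Tcf21.

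The widest difference among the 24 leading transcripts was in Slc30a10, an exporter of manganese from cells (Ensembl gene ENSRNOG00000002397, rn6 chr13:103396314-103410363). ND colons held 19.6 to 91.0 CPM with a median of 44.1, and D1M colons held 2.77 to 11.3 CPM with a median of 7.16. The groups did not overlap. The log2 fold change was -2.81 ± 0.57 (SE), and -2.51 without K4028, which had the highest value (edgeR, FDR = 0.819, unadjusted p = 0.00019). Within flow cells 1, 2 and 3 the difference in mean log2(CPM + 0.5) was -2.86, -1.58 and -3.63. DESeq2 called it at FDR = 0.00142. In the ileum of the same rats Slc30a10 fell too, by 1.02 ± 0.12 on the log2 scale (edgeR, FDR = 0.00147, where 0.0154% of 13026 ileal transcripts passed), from 91.4 to 123.8 CPM in ND to 46.0 to 66.6 CPM in D1M rats. Those groups did not overlap. One ileal library, from ND rat K4040, carried colonic RNA, with 3616 CPM of Car1 against 2.41 to 21.2 CPM in the other ND and 2.75 to 51.7 CPM in the D1M ileum libraries. Without it the ileal value was -0.99 ± 0.13 (edgeR, FDR = 0.01). Colon minus ileum, the log2 fold change differed by -1.79 ± 0.57, which did not pass (edgeR, FDR = 0.662), and by -1.53 ± 0.57 without the colon library of K4028 and the ileum library of K4040. The model for this difference had no term for the rat, although both tissues came from the same rats. D3M colons ranged from 1.58 to 18.97 CPM, and the log2 difference of D3M from D1M rats, which were of similar age, was 0.33 ± 0.58 (SE).

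**Figure D2:**
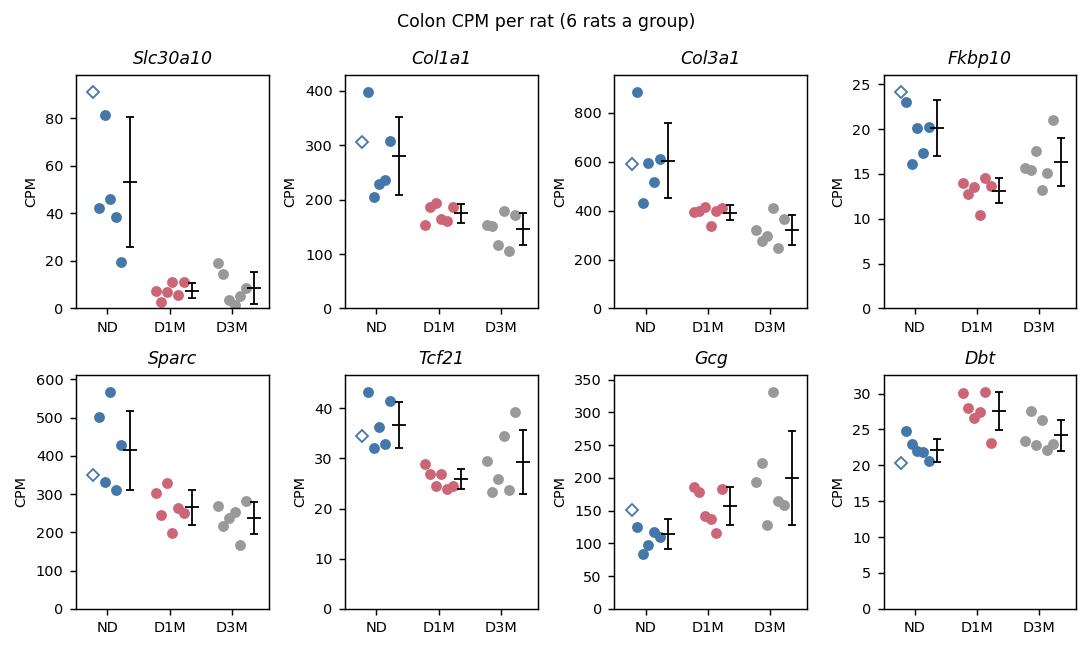
CPM of 8 leading transcripts in each colon library (points) for ND, D1M and D3M rats, 6 rats a group, with group mean and SD in black. The open diamond is ND rat K4028. D1M points lie below all ND points for Slc30a10, Col1a1, Col3a1, Fkbp10 and Tcf21, and overlap ND points for Sparc, Gcg and Dbt.

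Transcripts of fibrillar collagen and its chaperone headed the lower group. Col1a1, the main chain of type I collagen (ENSRNOG00000003897, rn6 chr10:82745801-82762789), ranged from 205 to 397.9 CPM in ND rats (median 270.4) and from 152.9 to 194.2 CPM in D1M rats (median 175.9). Col3a1, the chain of type III collagen (ENSRNOG00000003357, rn6 chr9:52023295-52059217), ranged from 430.7 to 885.9 CPM (median 592.8) and from 335.6 to 416.6 CPM (median 399.3). Fkbp10, a prolyl isomerase of the endoplasmic reticulum that helps collagen fold (ENSRNOG00000015941, rn6 chr10:88326080-88338207), ranged from 16.1 to 24.2 CPM (median 20.1) and from 10.5 to 14.5 CPM (median 13.6). In none of these 3 did the groups overlap. Their log2 fold changes were -0.65 ± 0.13, -0.61 ± 0.14 and -0.61 ± 0.12 (SE), and -0.67, -0.65 and -0.56 without K4028. None passed in edgeR (FDR = 0.819 for Col1a1 and Fkbp10 and 0.933 for Col3a1). DESeq2 called all 3 with K4028, at FDR = 0.00607, 0.0187 and 0.00839, and none without it. The 2 DESeq2 fits adjusted over unlike numbers of transcripts, 9399 with K4028 and 12904 without it. The smallest DESeq2 FDR without K4028 was 0.0533, close to the threshold.

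Sparc, a secreted protein that binds collagen, had 309.7 to 566.8 CPM in ND (median 388.6) and 197.4 to 327.9 CPM in D1M rats (median 257.7), with 1 D1M rat inside the ND range (log2 fold change -0.65 ± 0.17). Tcf21, a transcription factor of mesenchymal cells, did not overlap, with 32.0 to 43.2 CPM (median 35.3) against 23.9 to 28.8 CPM (median 25.6) (-0.50 ± 0.12). Eln, which encodes elastin, had 41.6 to 134.6 CPM in ND (median 78.2) and 18.4 to 61.1 CPM in D1M rats (median 51.2, -0.73 ± 0.21), and the groups overlapped. Its ileal log2 fold change was -0.72 ± 0.23 and did not pass there (edgeR, FDR = 0.436).

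Across the list of fibrillar and basement membrane collagens, 15 of 16 tested transcripts had a log2 fold change below 0, against 50.2% of all transcripts, and 7 stood at an unadjusted p below 0.05, all 7 lower in D1M (2.29% of all transcripts did). The median of the list was -0.26 against -0.00 for all transcripts, and -0.33 without K4028. Beside Col1a1 and Col3a1 these were Col5a2 (-0.44 ± 0.12), Col6a4 (-0.60 ± 0.17), Col6a1 (-0.40 ± 0.13), Col6a2 (-0.31 ± 0.12) and Col4a2 (-0.38 ± 0.18), chains of fibrillar, beaded-filament and basement membrane collagens. Leaving out 1 rat at a time gave 6 to 8 lower members and a median between -0.34 and -0.23. The median difference was below 0 in each flow cell, at -0.31, -0.16 and -0.44. The level averaged over the list overlapped between the groups, with a mean log2(CPM + 0.5) of 5.16 to 5.81 in ND and 4.87 to 5.53 in D1M rats.

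Of 30 transcripts of collagen processing and other matrix proteins tested, 26 were below 0 and 5 were at an unadjusted p below 0.05, all lower (50.2% and 2.29% of all transcripts were): Sparc, Eln, Lamc1 (a laminin chain), Lox (the collagen and elastin crosslinking enzyme) and Emilin1 (an elastic fibre glycoprotein). The median was -0.19, and -0.23 without K4028. Without D1M rat K3988 the count of lower members dropped to 2, and this rat had the lowest Eln. Of 16 matrix proteases and inhibitors, 10 were below 0 and 6 above, with a median of -0.12 that was -0.25 to -0.00 as each rat was left out. At an unadjusted p below 0.05, 2 were lower (2.29% of all transcripts) and 1 was higher (2.38% of all), the inhibitor Timp1, with 0.50 ± 0.23. Without K4028 these counts were 4 lower and 0 higher. Mmp2, a gelatinase, was at 111.9 to 181.8 CPM in ND and 82.0 to 124.4 CPM in D1M rats (-0.40 ± 0.15), and Adamts12 had a log2 fold change of -0.83 ± 0.26.

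Fibroblast transcripts had a median log2 fold change of -0.23, with 14 of 17 below 0 and 4 at an unadjusted p below 0.05, all lower (50.2% and 2.29% of all transcripts), and 3 to 6 as each rat was left out. These were Igfbp3, a carrier of insulin-like growth factors (86.4 to 222.2 CPM in ND and 63.5 to 117.8 CPM in D1M rats, -0.74 ± 0.23), the growth factor receptor Pdgfrb (-0.29 ± 0.09), the chemokine Cxcl12 (-0.40 ± 0.15) and the morphogen Bmp4 (-0.37 ± 0.16). For Igfbp3 the difference was 0.29 within flow cell 1, against -1.06 and -1.45 in flow cells 2 and 3, so its sign was not shared by all 3. The fibroblast receptor Pdgfra was at 36.1 to 52.6 CPM and 26.5 to 47.0 CPM (-0.23 ± 0.14). Of the insulin-like growth factor list, 12 of 13 were below 0 and 3 were lower at an unadjusted p below 0.05, against 50.2% and 2.29% of all transcripts (Igfbp3, Igfbp4 and the protease Htra1), while Igf1 itself was at 0.15 ± 0.26. Without ND rat K4040 that count was 1. The 15 endothelial transcripts had a median of -0.17, with 3 lower members at the same p against 2.29% of all transcripts. These were Aplnr, Tie1 and Cldn5, of which Cldn5 forms junctions of endothelial cells. The endothelial count was 2 without K4028 and 0 without ND rat K4040. Within flow cells 1, 2 and 3 the median difference of the endothelial list was -0.01, -0.21 and -0.28.

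The smooth muscle contractile list had a median of 0.11, and -0.00 without K4028, with 0 of 18 members at an unadjusted p below 0.05. Des, which encodes desmin, was at 942.1 to 2311 CPM in ND and 849.9 to 3331 CPM in D1M rats (0.38 ± 0.32). Kit, the receptor of interstitial cells of Cajal, the gut's pacemakers, was at 0.00 ± 0.16. Enteric neurons had a median of 0.10 with K4028 and -0.10 without it.

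**Figure D3:**
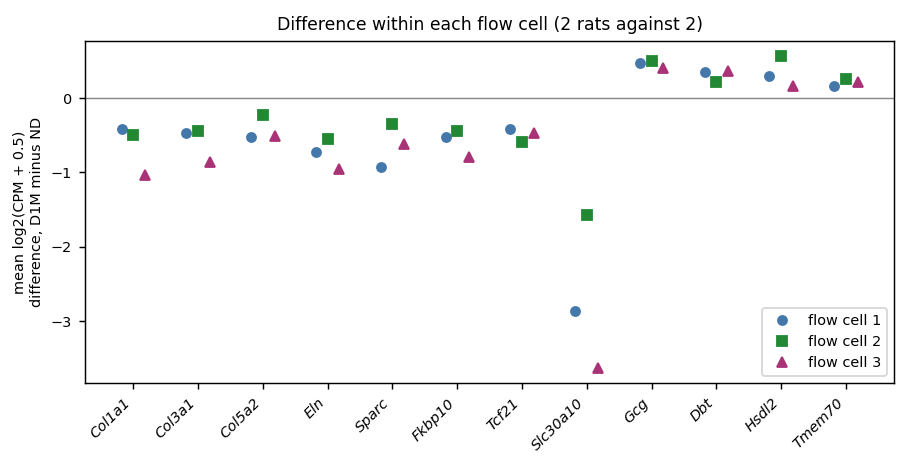
Difference in mean log2(CPM + 0.5), D1M minus ND (vertical axis), for 12 transcripts within each of 3 flow cells (symbols), each from 2 rats against 2. Points of the first 8 transcripts lie below 0 and those of the last 4 above 0 in every flow cell, and Slc30a10 is lowest, at -3.63 in flow cell 3.

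Of the other leading lower transcripts, Efna4, an ephrin ligand, was at 11.2 to 17.8 CPM in ND (median 15.9) and 8.49 to 12.9 CPM in D1M rats (median 10.8, -0.52 ± 0.12), and DESeq2 called it at FDR = 0.0498. Its ileal log2 fold change was 0.18, and the difference between tissues in the D1M minus ND change did not pass (edgeR, FDR = 0.217). Il20ra, a cytokine receptor chain (-0.76 ± 0.20), and Slc28a2, a nucleoside transporter (-0.88 ± 0.23), had -0.55 and -0.57 without K4028. C1qtnf2 (-0.65 ± 0.17) and the autophagy protease Atg4b (-0.25 ± 0.07) were also among the 12.

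Dbt led the higher transcripts. This subunit of the complex that degrades branched-chain amino acids was at 20.4 to 24.8 CPM in ND (median 22.0) and 23.1 to 30.2 CPM in D1M rats (median 27.7). The groups overlapped by the lowest D1M rat. Its log2 fold change was 0.31 ± 0.07 (edgeR, FDR = 0.921), 0.27 without K4028, and DESeq2 called it at FDR = 0.0195. Hsdl2, a peroxisomal dehydrogenase-like protein, had 0.35 ± 0.09, Tmem70, an assembly factor of ATP synthase, 0.21 ± 0.06, and Bco1, which cleaves beta-carotene to retinal, 0.62 ± 0.19. Kbtbd8 (0.67 ± 0.17) and Fbxo33 (0.28 ± 0.08) are adaptors of ubiquitin ligases. Mob4, Trim69, Ocm2, RGD1307621 and LOC100363502 completed the list, with log2 fold changes of 0.30, 0.41, 1.09, 0.60 and 0.36.

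Gcg, which encodes proglucagon, was at 84.3 to 150.8 CPM in ND (median 113.9) and 115.5 to 185.4 CPM in D1M rats (median 159.7). The log2 fold change was 0.46 ± 0.13, 0.46 also without K4028, and the differences within flow cells were 0.47, 0.49 and 0.40. It did not pass (edgeR, FDR = 0.952), and the ileal value was 0.12. Pyy, the peptide YY made by the same L cells, had 0.32 ± 0.23. Of 15 enteroendocrine transcripts tested, Gcg alone was at an unadjusted p below 0.05 (6.67% of the list higher, against 2.38% of all transcripts). As each rat was left out, 1 to 2 members were higher and 0 to 2 lower at that p.

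Absorptive colonocyte transcripts had a median of 0.15, with 12 of 17 above 0 and 2 higher at an unadjusted p below 0.05 (2.38% of all transcripts), 1 without K4028 and 0 to 3 as each rat was left out. These 2 were Car1 (0.30 ± 0.13, and 0.21 without K4028) and Car4 (0.32 ± 0.15, and 0.24), both carbonic anhydrases. Fut2, a fucosyltransferase of mucus glycans, had 236.5 to 281.6 CPM in ND and 269.8 to 347.9 CPM in D1M rats (0.21 ± 0.07). Of 18 tight junction transcripts 1 was at an unadjusted p below 0.05 on the higher side (Cldn23, 0.50 ± 0.22) and 1 on the lower side (Cldn5, -0.56 ± 0.26), with 0 to 3 higher as each rat was left out. These counts are near the 2.38% and 2.29% of all transcripts. Cldn3, at 1185 to 1420 CPM in ND and 1078 to 1875 CPM in D1M rats, had 0.17 ± 0.10, Ocln, the tight junction protein occludin, 0.01 ± 0.12, and Cldn4, Cldn8 and Cldn12 had -0.08 ± 0.34, 0.22 ± 0.30 and 0.12 ± 0.13. The cell cycle list had a median of 0.04 with 0 of 41 members at an unadjusted p below 0.05, and Mki67, the proliferation marker, had 0.02 ± 0.15. In D3M rats Mki67 was -0.68 relative to ND and -0.71 ± 0.17 relative to D1M rats, which did not pass (edgeR, FDR = 0.775).

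**Figure D4:**
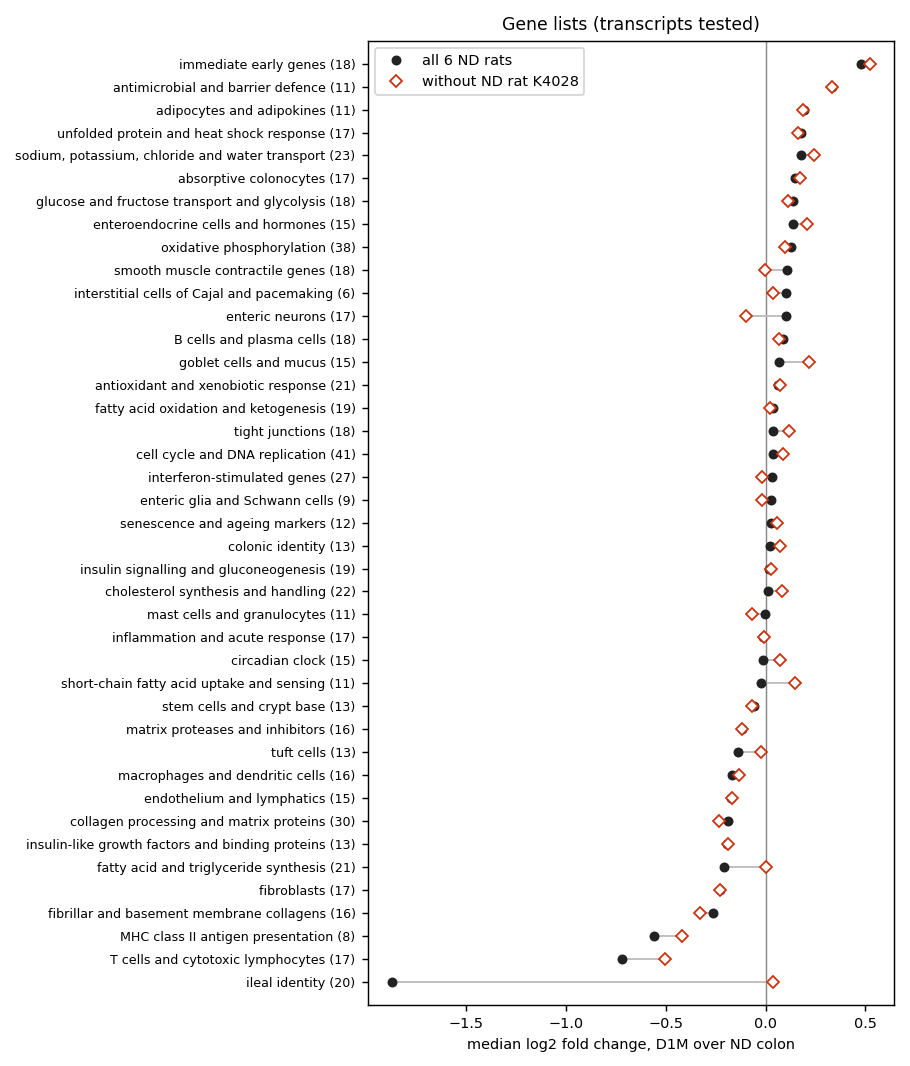
Median log2 fold change of D1M over ND colon (horizontal axis) for each gene list with at least 5 transcripts tested (number in brackets), with all 6 ND rats (filled circles) and without ND rat K4028 (open diamonds). The ileal identity list moves from -1.87 to 0.04, while collagens move from -0.26 to -0.33.

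Of 38 oxidative phosphorylation transcripts, 37 were above 0 and 1 below (50.2% of all were below), with a median of 0.13, and 0.10 without K4028. Of these, 2, Ndufs1 (0.23 ± 0.09) and Uqcrb (0.25 ± 0.10), subunits of complexes I and III, stood at an unadjusted p below 0.05 (2.38% of all were higher), 0 without K4028 and 16 without D1M rat K3989. The median difference of the oxidative phosphorylation list was -0.10 within flow cell 1, against 0.26 and 0.22 within the other flow cells. Its sign was thus not shared by all flow cells. Averaged over the list, the log2 level overlapped between the groups, at 8.165 to 8.48 in ND and 8.186 to 8.687 in D1M rats. Of 18 glucose transport and glycolysis transcripts tested, 5 stood at an unadjusted p below 0.05 on the higher side (2.38% of all transcripts were). These were Pfkl, Eno1, Hk2, Aldoa and Slc2a1 (log2 fold changes 0.23 to 0.34). On the lower side stood 2 (2.29% of all), the fructose and glucose transporters Slc2a5 (-2.22) and Slc5a9 (-0.80). Without K4028, which held 82.5 CPM of Slc2a5 against 1.52 to 3.05 CPM in the other ND rats, the counts were 0 higher and 0 lower, and without ND rat K4048 the higher count was 0 as well. Fasn and Cpt1a, enzymes of fatty acid synthesis and oxidation, had -0.02 ± 0.07 and 0.01 ± 0.08.

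Of 17 unfolded protein and heat shock transcripts 5 stood at an unadjusted p below 0.05, all higher, against 2.38% of all transcripts (Hsph1, Atf3, Hspa8, Dnajb1 and Hspd1), and 4 without K4028, with 2 to 7 as each rat was left out. Of 18 immediate early transcripts 3 did, also higher (Atf3, Dusp1 and Jun), with a list median of 0.48. D1M rat K3986 held 305.9 CPM of Atf3, 662 CPM of Egr1, 534.2 CPM of Hmox1 and 331.5 CPM of Dnajb1. The highest of the other 5 D1M rats were at 89.1, 88.5, 67.0 and 143.1 CPM. Without K3986 the immediate early median was 0.18 with 0 members at an unadjusted p below 0.05. Hspa8 (ENSRNOG00000034066), a constitutive heat shock protein, was at 411.3 to 582.6 CPM in ND and 518.5 to 671 CPM in D1M rats (0.21 ± 0.09).

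T cell transcripts had a median of -0.72 with 16 of 17 below 0, and 0 at an unadjusted p below 0.05. Their mean level over the list ranged from 1.47 to 3.57 in ND and from 1.15 to 3.16 in D1M rats as mean log2(CPM + 0.5). Within flow cell 1 the median difference was 1.11 and within flow cell 2 it was -2.28, where flow cell 1 held the B cell-rich D1M rat and flow cell 2 both B cell-rich ND rats. Within flow cell 3, which held no B cell-rich ND or D1M rat, it was -0.72. The MHC class II list had 1.11, -1.91 and -0.95 within flow cells 1, 2 and 3. Without K3989 the T cell list had 9 and the MHC class II list 6 lower members, against 0 and 0 with it, and medians of -1.12 and -0.996. In that fit 753 of all 12963 transcripts were lower at an unadjusted p below 0.05. Csf1r, the macrophage growth factor receptor, was at 35.9 to 69.9 CPM in ND and 26.2 to 47.0 CPM in D1M rats (-0.38 ± 0.15). With the B cell score in the model, 4 of 17 T cell and 6 of 8 MHC class II transcripts were lower at an unadjusted p below 0.05, with medians of -0.55 and -0.56. Of all 12906 transcripts, 454 were lower at that p with the score in the model. In the same fit the collagen list had a median of -0.27 and 0 transcripts passed FDR < 0.05.

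Of the interferon-stimulated list, 0 of 27 in colon stood at an unadjusted p below 0.05 in edgeR, with a median of 0.03. In the ileum of the same rats 20 of 27 did, all higher in D1M, with a median of 1.70 (5.11% of ileal transcripts were on that side at this p). Without the ileum library of K4040 16 of 27 did, with a median of 1.86. The D1M minus ND change itself differed between tissues at an unadjusted p below 0.05 for 7 of 27, all lower in colon (3.06% of all were). None of the 7 passed the correction (edgeR, smallest FDR in the list = 0.695). No transcript passed the test of whether the D1M minus ND change differed between colon and ileum (0 of 13697, 0%). At an unadjusted p below 0.05 stood 775, or 5.66%. Without the 2 libraries that mixed tissues, the colon of K4028 and the ileum of K4040, 1 did, Cryba4, of 13801 (0.00725%), named after its value was seen.

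The transcripts that DESeq2 called with K4028 (11 of 9399, 0.117%) included 5 defensins, antimicrobial peptides of Paneth cells in the small intestine. K4028 held 538.3 CPM of Defa8, 750.0 CPM of Defa9, 1366 CPM of Defa24, 858.9 CPM of Defal1 and 320.8 CPM of Defa6. Defa8 was also present in other ND rats, with 0.98, 3.78, 22.0, 56.5 and 84.7 CPM in those 5, against 0 to 2.29 CPM in D1M rats. Without K4028 its log2 fold change was -5.50, and that of Defa9 was -3.75 (edgeR, unadjusted p = 0.00746 and 0.0209). These values overlapped between the groups. Defensin genes are near-identical copies that counting can split, so the share of each is uncertain. D3M rats held 54.6, 27.3 and 79.6 CPM of Defa8 in 3 rats and 0.189 to 0.516 CPM in the other 3. Fabp6 in the ND rats other than K4028 was 3.86 to 21.3 CPM, overlapping the D1M range. The part of ileal RNA in the defensin values of these 5 rats was not tested.

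**Figure D5:**
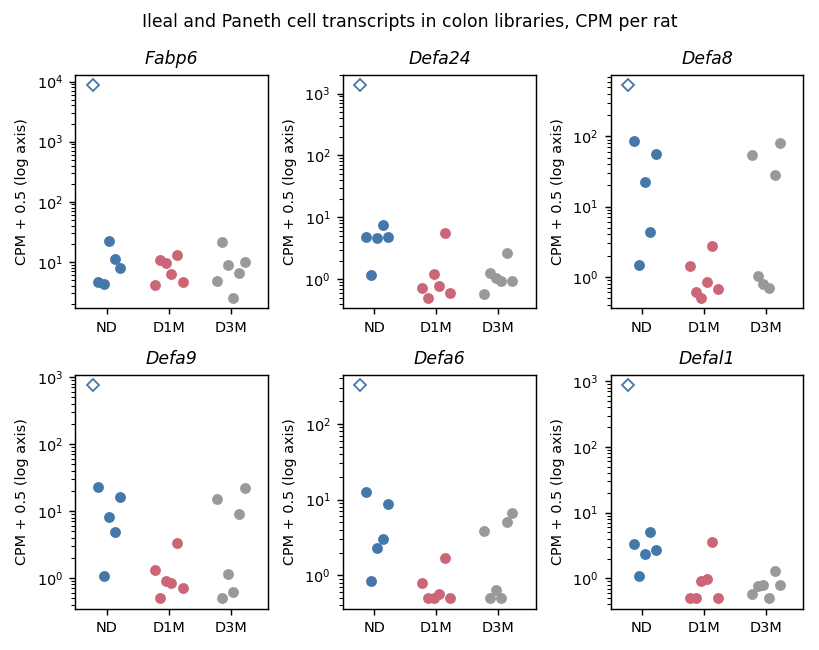
CPM + 0.5 on a log axis of Fabp6 and 5 defensins in each colon library (points) for ND, D1M and D3M rats. The open diamond is ND rat K4028, which lies above all other libraries in every panel, with 8706 CPM of Fabp6.

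Groups did not overlap at all for 17 of 12906 transcripts (0.132%), 15 lower (0.116%) and 2 higher (0.0155%) in D1M rats. Relabelling 6 rats against 6 separates them completely at a rate of 0.002165 (the smallest p of the exact permutation test). The share of 0.132% was not above that rate, so a lack of overlap does not single out a transcript here. The higher ones were Lypd1 and Ttc12, named after their values were seen, with log2 fold changes of 0.84 ± 0.24 and 0.63 ± 0.20. The lower ones were Slc30a10, Col1a1, Col3a1, Fkbp10, Tcf21, Mmp23, Ptprb, Plxnd1, Vasn, Pias3, Zfp512b, Pld2, Ccr1, Tmem150a and Aox1, of which the last 10 were likewise chosen after their values were seen. Without K4028 31 lower (0.24%) and 4 higher (0.031%) transcripts did not overlap, where relabelling 5 rats against 6 separates them more often.

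D1M medians of Col1a1 and Col3a1 lay between those of ND and D3M rats. Col1a1 had a median of 151.7 CPM in D3M rats and a log2 fold change of -0.999 relative to ND, where it passed (edgeR, FDR = 0.0317), and Col3a1 had 310.4 CPM and -0.96 (FDR = 0.0345 in the same edgeR test). They were the 2 transcripts called in that comparison (0.0155% of 12906). D3M relative to D1M rats gave -0.35 ± 0.14 for Col1a1 and -0.35 ± 0.15 for Col3a1, which did not pass (edgeR, FDR = 0.945 for both). Fkbp10 had a D3M median of 15.6 CPM, above the D1M median of 13.6 CPM (D3M over D1M 0.25 ± 0.13). The study lists 24 transcripts for D3M against ND, chosen on libraries that include these ND controls and so no independent evidence. Of these 24 transcripts, 10 stood at an unadjusted p below 0.05 lower and 4 higher in D1M rats (2.29% and 2.38% of all transcripts). Those on the higher side were Gcg, Med21, Fut2 and Aldh2, and the lower side held, beside the collagens, Cxcl12, Fgfr4, Pzp and Adamts12 among others.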

How the data were processed

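The authors aligned reads from poly-A RNA with STAR to rn6 and deposited counts per gene; versions and the strand setting of counting are not given in the sources used here. The deposited log2 table was not used. Counts of 24773 genes were filtered (filterByExpr), TMM scaled and fitted in edgeR 4.0.16 (R 4.3.3, limma 3.58.1, quasi-likelihood, robust, flow cell as covariate) over 18 colon libraries, whose D3M rats add to the spread, with Benjamini-Hochberg FDR. DESeq2 1.42.0 and voom were alternatives. CPM was logged with 0.5 added. Traits of the rats were tested by exact permutation. The ileum fit without K4040 was added after the data were seen. The code was tested on simulated data. Named transcripts were the 12 with the smallest p in each direction (mean log2 CPM 1 or more), up to 10 that DESeq2 called, each list's key genes and 2 members with the smallest p, and transcripts the study names. Other list members, among them Lamc1, Bmp4, Jun and Hspa8, were chosen after their values were seen. Members and lists were chosen with earlier results of these data known. Each rat is a separate animal. The p-values of single transcripts cover the spread among rats of few litters. Figures used matplotlib 3.10.9 and Python 3.11. Some transcripts are not reported here.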

Additional observations from a re-analysis of the deposited data

Results flagged for a closer look

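Of 98 groups of 6 rats examined over 49 named transcripts, 13 held a rat far from the other 5. Chance flags about 1 in 20 groups, but these transcripts share rats and some were named for the ileal RNA of K4028, so that share does not apply to this set. ND rat K4028 accounted for 6. It stood at 8706 CPM for Fabp6, 1366 CPM for Defa24, 858.9 CPM for Defal1, 147.1 CPM for the glucose transporter Slc5a1, 82.48 CPM for the fructose transporter Slc2a5 and 54.22 CPM for the nucleoside transporter Slc28a2. D1M rat K3989 stood above the other D1M rats for Defa24, at 5.094 CPM, and Defal1, at 3.067 CPM. D1M rat K3988 was lowest for Col3a1, at 335.6 CPM, and for Eln, at 18.36 CPM. D1M rat K3978 was lowest for Csf1r, at 26.23 CPM. C1qtnf2 was highest in ND rat K4037, at 22.42 CPM, and the heat shock cofactor Dnajb1 in D1M rat K3986, at 331.5 CPM.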

How the results depend on the processing

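The count of 0 transcripts at FDR < 0.05 held under all alternatives run except DESeq2, which called 11. At FDR < 0.2 the count was 464 without flow cell 1, 16 with DESeq2 and 43 with voom. Transcripts at an unadjusted p below 0.05 on the higher side (307) became 194 without the flow cell term, 718, 201 and 555 without flow cells 1, 2 and 3, 191 with ND and D1M libraries alone and without K4028, and 787 with voom. On the lower side (295) there were 964 without flow cell 1, 681 with voom and 454 once the B cell score was a covariate. Upper quartile scaling gave 210 higher and 389 lower. Leaving out each rat gave 204 to 619 higher (fewest without K3987, most without K3978) and 219 to 753 lower (fewest without K3987, most without K3989). The cause was not tested. The glucose difference ranged from 17.56 to 34.56 mg/dl with each rat left out and missed the threshold without any 1 of the ND rats. The difference between tissues in the D1M minus ND change gave 1 call without the mixed libraries. The ileum gave 1 without K4040, against 2 with it. ND and D1M rats are different animals, so the colon comparison has no pairing. With the rat as a replicate block, the difference between tissues in the D1M minus ND change gave 0 calls.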
